A study of Oryza sativa with 2 samples.

Results

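On the arms of the 12 rice chromosomes, away from the centromeres, 216 differentially methylated regions (DMRs) were found between seeds that matured at 30 °C and seeds that matured at 25 °C. A DMR was counted as lying on an arm when its midpoint was more than 5.0 Mb from the approximate midpoint of the centromere of its chromosome on the IRGSP-1.0 genome. Of all 457 DMRs, 216 met this rule, 203 lay within 5.0 Mb of a centromere midpoint, and 38 were on unplaced sequences and were left out. The centromere midpoints are approximate, so DMRs next to the 5.0 Mb limit could fall on either side of it. The 2 arm DMRs closest to the limit were CHG DMRs at chromosome 6, 10255895 to 10256010, with 18.7% in heat-treated and 70.9% in control seeds, and at chromosome 9, 7864764 to 7864873, with 36.7% and 90.1% in the same order. The 2 closest on the other side were CHH DMRs at chromosome 3, 14401953 to 14402118, with 72.3% and 25.8%, and at chromosome 7, 7131273 to 7131347, with 50.9% and 18.3%.

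The plants were Oryza sativa of the cultivar Nipponbare, with no transgene or mutation named in the labels, and heat was applied only while the grains filled. Seeds of the control set (CS) ripened at 25 °C and those of the heat set, heat-treated during development (HDS), at 30 °C. Per the study's methods, DNA was pooled from dissected embryos of each treatment, whereas the labels name the tissue only as seed. Each treatment gave 1 library for whole-genome bisulfite sequencing, which reads unmethylated cytosines as thymine and methylated cytosines as cytosine. A difference between CS and HDS here is therefore a difference between 1 pool and another. It could not be set against the spread between seed pools, no p-value is given, and an effect of temperature and a chance difference between the pools cannot be told apart. The tables give the methylation level of each DMR in each library but no read depth, so no interval is given for any level. The level columns carry no sample name. The first was taken to be HDS and the second to be CS, and every direction given here depends on that reading.

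Plants methylate cytosine in 3 sequence contexts, CG, CHG and CHH, where H is any base but G. CG methylation is copied after replication by the methyltransferase MET1. CHG methylation is kept by CMT3, which is recruited by methylation of histone H3 at lysine 9, so that the DNA and histone marks sustain each other. CHH methylation has no symmetric partner strand to be copied from and is laid down anew by DRM2, guided by small RNAs, and by CMT2 in heterochromatin. In rice, retrotransposons and heterochromatin are concentrated around the centromeres, whereas genes and short transposons near genes are concentrated on the arms. Genes and transposons at the DMRs were not analysed here.

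The arms held about as many DMRs as the much shorter stretches around the centromeres. They carried 51.6% (95% Wilson interval 46.8 to 56.3%) of the 419 DMRs on chromosomes, and the share hardly varied by context (CG 51.2%, CHG 51.6%, CHH 51.8%). Over the 234.7 Mb of arm between the first and the last DMR of each chromosome there were 0.920 DMRs per Mb. Over the 117.8 Mb within 5.0 Mb of the centromere midpoints there were 1.72 per Mb, a density 1.87 times as high. The arms were the sparser part on 9 of the 12 chromosomes, and the exceptions were chromosomes 7, 11 and 12, with 1.47, 1.57 and 1.44 arm DMRs per Mb against 0.9, 1.3 and 1.3 near the centromere. The density gap was wider for hyper-DMRs, which had the higher level in HDS, than for hypo-DMRs, which had the lower level in HDS. Gain and loss below name these directions only, between 1 library and the other. There were 1.12 hyper-DMRs per Mb near the centromeres and 0.498 on the arms, and 0.603 and 0.422 hypo-DMRs per Mb in the same order.

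**Figure D1:**
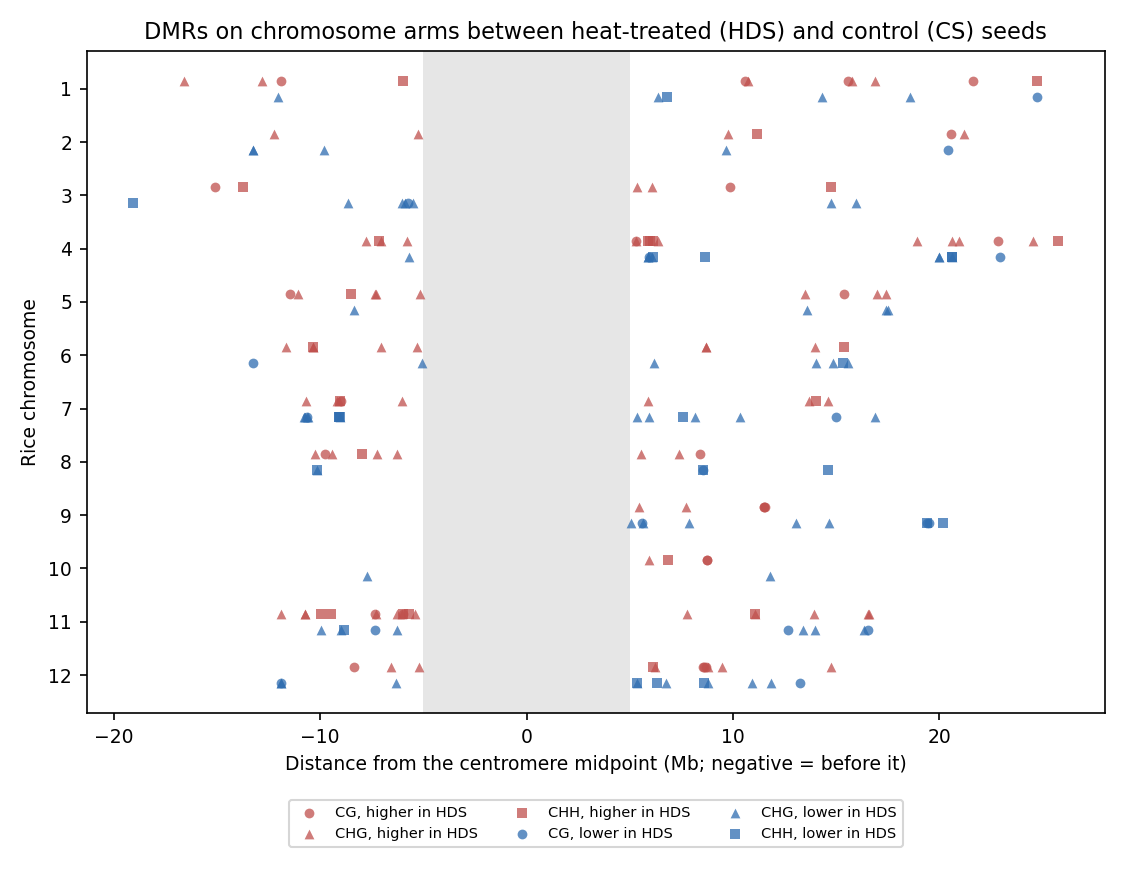
Arm DMRs by chromosome (vertical axis) and distance from the centromere midpoint (horizontal axis, Mb, negative before it). Red marks are higher and blue marks lower in HDS, circles are CG, triangles CHG and squares CHH, and the grey band is the 5.0 Mb on each side that was left out. The 15 arm DMRs of chromosome 9 all lie after its centromere. The rule allows no others there, since that midpoint is less than 5.0 Mb from the start of the sequence.

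CHG was the most frequent context on the arms, with 131 DMRs (60.6% of the 216), while CG had 42 and CHH 43. This mix was not particular to the arms. CHG had 123 of the 203 DMRs near the centromeres and 277 of all 457. The summed length was 23067 bp for CHG, 6293 bp for CG and 7559 bp for CHH, and all arm DMRs together held 3567 cytosines. Their median length was 134.5 bp (range 51 to 852 bp), against 148 bp (51 to 932 bp) near the centromeres. A typical CHH DMR rested on 28 cytosines, against 10 for CG and 9 for CHG (medians). Hypo-DMRs of CHG on the arms had a median length of 158.5 bp and hyper-DMRs of CHG 115 bp, and the binomial intervals of these medians, 114 to 208 bp and 98 to 149 bp, overlapped.

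The balance of direction on the arms was closer to even than around the centromeres. On the arms 117 DMRs were hyper-DMRs and 99 hypo-DMRs, a hyper-DMR share of 54.2% (Wilson 47.5 to 60.7%), against 59.1% among all deposited DMRs. The arm interval includes this 59.1%, so the arm share was not set apart from that background. Near the centromeres 132 of 203 were hyper-DMRs, or 65.0% (58.2 to 71.3%). The share on the arms was lower by 10.9 points, a difference of -10.9 with a 95% Newcombe interval of -20.0 to -1.45. These intervals cover counting error over DMRs only, treat neighbouring DMRs as independent and were not adjusted for the 4 comparisons made. The difference was below 0 in each of the 19 alternatives run, but its interval included 0 in 6 of them. It was -9.15 points (-18.7 to 0.604) without chromosome 7, -8.11 points (-17.6 to 1.64) without chromosome 9 and -9.62 points (-19.2 to 0.271) without chromosome 10. It was -4.68 points (-14.2 to 5.25) with a limit of 3.0 Mb, -10.4 points (-22.4 to 2.23) with at least 10 cytosines and -7.02 points (-18.8 to 5.25) when DMRs within 100 kb were counted once. Each such joined group mixed contexts and directions. It took its direction from the DMR with the largest product of absolute difference and number of cytosines.

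The contexts were then taken one by one. On the arms 69 of 131 CHG DMRs were hyper-DMRs, or 52.7% (44.2 to 61.0%), against 58.8% among all deposited CHG DMRs and 66.7% (57.9 to 74.4%) near the centromeres. The arm interval includes the share among all deposited CHG DMRs, so the arm share was not set apart from that background. The CHG difference was -14.0 points (-25.5 to -1.92). Its interval stayed below 0 in 16 of 19 alternatives and included 0 without chromosome 9, where it was -11.5 points (-23.4 to 1.04), with a limit of 3.0 Mb, where it was -9.23 points (-21.1 to 3.52), and with at least 10 cytosines, where it was -17.6 points (-34.0 to 0.754). In CHH, 23 of 43 arm DMRs were hyper-DMRs, or 53.5% (38.9 to 67.5%), against 64.1% among all deposited CHH DMRs and 70.0% near the centromeres, and the difference of -16.5 points had an interval that included 0 (-35.3 to 4.32). This CHH value moved with the settings, to -0.135 points (-20.8 to 22.1) with a limit of 3.0 Mb, -23.1 points (-42.7 to -1.38) with 7.5 Mb and -26.4 points (-45.3 to -4.05) without chromosome 11. In CG, 25 of 42 arm DMRs were hyper-DMRs, or 59.5% (44.5 to 73.0%), against 54.5% among all deposited CG DMRs and 55.0% near the centromeres. For CHH and CG, too, the arm interval includes the share among all deposited DMRs of that context. The CG difference, 4.52 points (-16.2 to 24.8), was therefore not detectable with these numbers of DMRs. Whether the contexts differ from each other in this respect was not tested.

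The share of hyper-DMRs was then followed outwards. Within the arms it was 60% (47.9 to 71.0%) of 65 DMRs at 5.0 to 7.5 Mb from the centromere midpoint, 56.5% of 46 at 7.5 to 10 Mb, 50.8% of 61 at 10 to 15 Mb and 42.9% (26.5 to 60.9%) of 28 at 15 to 20 Mb. Beyond 20 Mb it was 56.3% (33.2 to 76.9%) of 16 DMRs. The intervals of these bands overlap one another, and the steps between neighbouring bands were not tested. The density was 1.13 per Mb at 5.0 to 7.5 Mb, 0.772 per Mb at 10 to 15 Mb and 1.34 per Mb beyond 20 Mb, where the span was only 11.96 Mb. That span ended at the last DMR of each chromosome. The 16 DMRs in it lay on chromosomes 1, 2, 4 and 9 only, and 4 of them formed a single group within 3.17 kb on chromosome 4. Among CHG DMRs alone, 27 of 45 were hyper-DMRs in the innermost band, 11 of 22 in the next, 19 of 42 at 10 to 15 Mb, 8 of 17 at 15 to 20 Mb and 4 of 5 beyond.

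**Figure D2:**
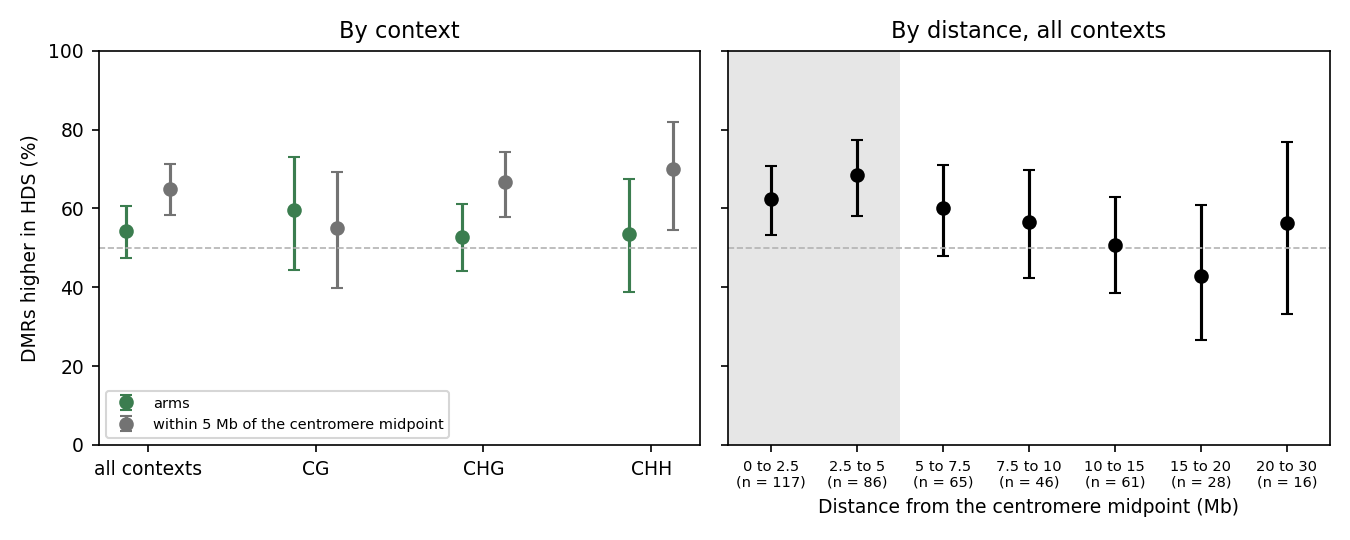
Percentage of DMRs with the higher level in HDS (vertical axis), left by context for the arms (green) and for DMRs within 5 Mb of a centromere midpoint (grey), right by distance from the centromere midpoint in Mb, with the 5 Mb left out of the arms shaded. Points are shares, bars are 95% Wilson intervals over DMRs, and the dashed line is 50%. The arm share was 54.2% against 65.0% near the centromeres and 59.1% among all deposited DMRs.

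The direction of the larger differences on the arms depended on where the limit was set. Of the arm DMRs, 25 differed by more than 50 points, of which 13 were CHG, 9 CG and 3 CHH DMRs, and this limit was chosen after the values were seen. Among them 8 were hyper-DMRs and 17 hypo-DMRs, a hyper-DMR share of 32.0% (Wilson 17.2 to 51.6%), whose interval includes an even split. Near the centromeres 22 of the 29 DMRs past 50 points were hyper-DMRs, or 75.9% (57.9 to 87.8%). The difference between the arms and the centromere surroundings was -43.9 points (-62.9 to -17.3). With a limit of 40 points the shares were 49.4% of 79 arm DMRs and 69.3% of 75 near the centromeres, a difference of -20.0 points (-34.2 to -4.44). With a limit of 45 points they were 47.8% of 46 and 68.2% of 44, a difference of -20.4 points (-38.5 to -0.00252). At 40 and 45 points the arm DMRs were thus split about evenly, and the excess of losses was seen only past 50 points among these 3 limits. The largest loss on the arms was at chromosome 11, 2997000 to 2997425, where 16 CHG cytosines had 12.95% in HDS against 75.4% in CS. The largest gain was at chromosome 12, 20496900 to 20497114, where 23 CG cytosines had 82.3% in HDS against 13.03% in CS.

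The levels of the arm DMRs were highest in CG and lowest in CHH. In CG hyper-DMRs of the arms the level in CS ranged from 5.04% over a median of 38.7% to 64.3%, and that in HDS from 28.0% over 82.1% to 95.7%. In CG hypo-DMRs the level in CS ran from 58.8% over 83.8% to 93.4%, and that in HDS from 6.35% over 40.7% to 64.3%. Thus 24 of 42 CG DMRs (57.1%) had a level over 80% in the library that was more methylated. Near the centromeres 25 of 40 (62.5%) did. On the arms 13 CG DMRs (30.95%) had both libraries over 50%. Near the centromeres 20 of 40 (50%) did, so the arm share was lower, a difference of -19.0 points (-38.0 to 2.08).

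The CHG DMRs were intermediate. Hyper-DMRs had 3.13 to 58.1% in CS with a median of 29.7%, and 40.5 to 87.4% in HDS with a median of 69.1%. Hypo-DMRs had 42.0 to 92.6% in CS with a median of 72.1%, and 4.13 to 57.0% in HDS with a median of 30.8%. A level under 10% in the less methylated library was found in 20 of 131 CHG DMRs (15.27%), against 17 of 123 (13.8%) near the centromeres, a difference of 1.45 points (-7.41 to 10.2).

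The CHH DMRs had the lowest levels. CHH hyper-DMRs of the arms had 2.07 to 26.5% in CS with a median of 14.4%, and 28.7 to 64.1% in HDS with a median of 49.8%. Near the centromeres the median was 6.37% in CS and 42.4% in HDS. The CS level was under 10% in 9 of 23 CHH hyper-DMRs on the arms (39.1%, Wilson 22.2 to 59.2%) and in 20 of 28 near the centromeres (71.4%, 52.9 to 84.7%), a difference of -32.3 points (-53.9 to -5.0). This was 1 of 27 such comparisons of levels between arms and centromere surroundings, and the limit of 10% was chosen with earlier results known. The median CS level on the arms had a binomial interval of 4.45 to 19.396%, which includes the median near the centromeres. The interval of the median near the centromeres, 3.53 to 9.09%, did not include the arm median. The difference of the 2 medians was not tested. CHH hypo-DMRs of the arms had 33.0 to 69.0% in CS with a median of 44.99%, and 1.95 to 30.8% in HDS with a median of 7.39%. In 12 of these 20 (60%) the level in HDS was under 10%, against 5 of 12 (41.7%) near the centromeres. The difference was 18.3 points (-15.6 to 47.1).

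**Figure D3:**
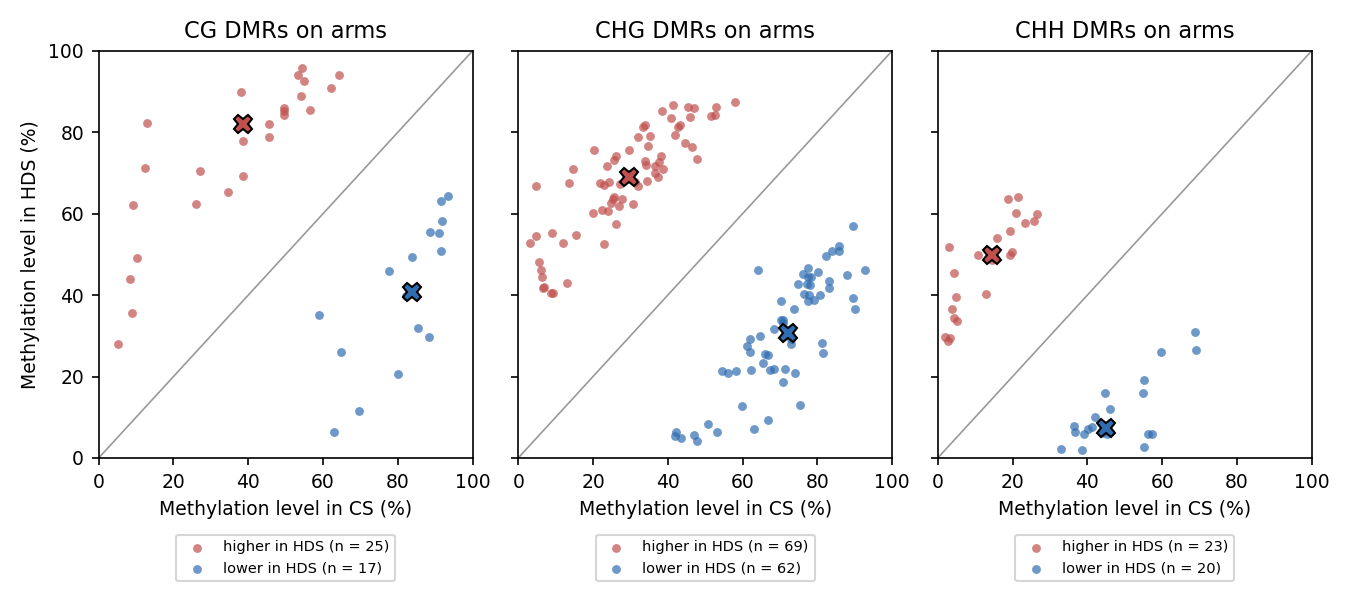
Methylation level of each arm DMR in CS (horizontal axis, %) and HDS (vertical axis, %), by context. Red points are higher and blue points lower in HDS, crosses are the medians of each direction, and the grey line marks equal levels. CG points lie highest and CHH points lowest, with median HDS levels of 82.1% and 49.8% among hyper-DMRs. The band along the line is empty, with a smallest difference of 17.7 points.

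The size of the difference was among the criteria of the DMR calls, so it is given as a description. Arm DMRs of CG, CHG and CHH had median absolute differences of 36.4, 38.4 and 34.2 points. Near the centromeres it was 34.2, 38.8 and 32.7 points, each within the binomial interval of the arm median, except that the CG value of 34.2 points lay just below its lower bound of 34.3 points.

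The DMRs named next were the 4 in each context and direction with the largest product of absolute difference and number of cytosines. Among CG hyper-DMRs, the first was at chromosome 1, 32280637 to 32281182, a dense stretch of 136 CG cytosines in 546 bp. It had 49.1% in HDS against 10.2% in CS, so that a region with little CG methylation in the control pool had an intermediate level in the heat-treated pool. The second was the 82.3% against 13.03% of chromosome 12 given above. The remaining pair were chromosome 12, 3527447 to 3527623, with 84.3% in HDS against 49.7% in CS, and chromosome 8, 21319978 to 21320204, with 62.5% in HDS against 26.0% in CS.

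CG hypo-DMRs started from high levels in CS. At chromosome 7, 1476351 to 1476558, 38 cytosines had 20.6% in HDS against 79.9% in CS, and at chromosome 11, 4644414 to 4644663, 33 cytosines had 32.0% in HDS against 85.4% in CS. The loss was smaller at chromosome 2, 34012937 to 34013141, with 55.1% in HDS against 91.0% in CS, and at chromosome 3, 13641019 to 13641153, with 45.9% in HDS against 77.6% in CS. All 4 were methylated above 77% in CS, and only the chromosome 2 region stayed above 50% in HDS.

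Among CHG hyper-DMRs, 52 cytosines at chromosome 7, 25815456 to 25815800, had 75.7% in HDS against 29.7% in CS. On the same chromosome, 34 cytosines at 2997641 to 2998047 had 81.3% in HDS against 33.3% in CS. The others were chromosome 8, 3475189 to 3475558, with 74.1% in HDS against 26.1% in CS, and chromosome 6, 9969988 to 9970189, with 60.2% in HDS against 19.98% in CS. None of these 4 was under 10% in CS.

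The CHG hypo-DMRs were led by chromosome 4, 30347577 to 30348007, where 54 cytosines had 23.3% in HDS against 65.4% in CS. Chromosome 3, 13875232 to 13875581, had 21.6% in HDS against 67.3% in CS over 42 cytosines. Chromosome 6, 30872179 to 30872702, had 41.8% in HDS against 83.2% in CS, and chromosome 1, 31021252 to 31021546, had 42.4% in HDS against 78.0% in CS, each over 43 cytosines. The first pair thus reached lower levels in HDS than the second pair.

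The 4 CHH hyper-DMRs started from different levels. At chromosome 7, 3063164 to 3063725, and chromosome 4, 15831982 to 15832146, CHH methylation was nearly absent in CS, at 3.94% and 3.09%, and was 36.6% and 51.8% in HDS. At chromosome 10, 15058721 to 15059020, and chromosome 6, 4943176 to 4943558, it was already 14.9% and 15.9% in CS, and was 49.4% and 54.0% in HDS.

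The named CHH losses ended at low levels. The 4 hypo-DMRs were at chromosome 8, 27526085 to 27526446 (88 cytosines), chromosome 7, 19704572 to 19704807 (50 cytosines), chromosome 12, 20488324 to 20488664 (47 cytosines), and chromosome 9, 22200420 to 22200669 (69 cytosines). Their levels in CS were 40.1%, 56.2%, 57.2% and 41.2%, and in HDS 7.05%, 5.88%, 5.94% and 7.73%, in that order. All 4 were thus below 10% in HDS, and the rule that named them favours large differences. Of all 20 CHH hypo-DMRs of the arms, 12 were under 10% in HDS, and the highest HDS level was 30.8%.

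**Figure D4:**
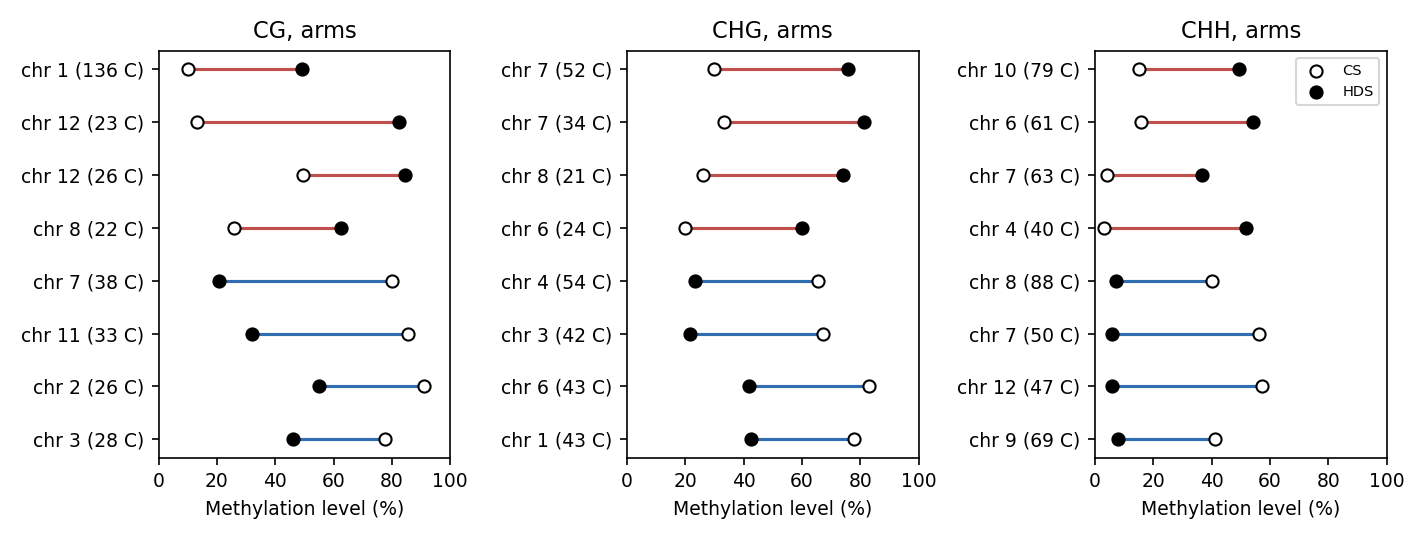
Methylation level (horizontal axis, %) in CS (open circles) and HDS (filled circles) of the 4 arm DMRs named in each context and direction, labelled with the chromosome and the number of cytosines. Red lines join levels that were higher in HDS and blue lines levels that were lower. The 4 CHH hypo-DMRs all end under 10% in HDS.

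DMRs of different contexts were next compared where they shared at least 1 bp. On the arms there were 9 such pairs, 3 of CG with CHG, 1 of CG with CHH and 5 of CHG with CHH. They were made of 17 DMRs, or 7.87% (Wilson 4.97 to 12.2%) of the 216. Near the centromeres 26 of the 203 DMRs were in such pairs, or 12.8% (8.89 to 18.1%). Both members of a pair come from the same 2 libraries and the same place, so a pair is not independent evidence. In all 9 pairs both contexts differed in the same direction. In all 9 the context listed first, in the order CG, CHG, CHH, had the higher level, whether the more or the less methylated library of each DMR was compared.

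Among the overlapping pairs, loss in both contexts was seen on the arms and not near the centromeres. This comparison was added after the data were seen. Of the 9 arm pairs, 6 were lower in HDS in both contexts and 3 were higher in both. Of the 16 pairs near the centromeres, none was lower in both, 15 were higher in both, and 1 pair was discordant. The share of pairs lower in both contexts was 66.7% (exact Clopper-Pearson interval 29.9 to 92.5%) on the arms and 0 of 16 near the centromeres (0 to 20.6%), a difference of 66.7 points (Newcombe 29.9 to 87.9). These intervals treat pairs as independent, but pairs at the same place are not. Several pairs near the centromeres shared a single place on chromosome 8, and a single CHG DMR was part of more than 1 arm pair. No interval was computed for places, and the alternatives for pairs were run on the arms only. Counted as places, 5 of 8 on the arms were lower in HDS, and 11 of 12 near the centromeres were higher. With at least 50% of the shorter DMR shared, or with a distance of up to 500 bp allowed, there were 8 and 10 arm pairs, again all in the same direction. The 199 arm DMRs outside pairs were hyper-DMRs in 111 cases, or 55.8%.

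The 5 places with losses lay on chromosomes 4, 7, 9 and 12. On chromosome 4, the CHG hypo-DMR at 30347577 to 30348007 contained 2 CHH hypo-DMRs. The CHH level was 10.045% in HDS against 42.1% in CS at 30347594 to 30347646, and 7.78% in HDS against 36.4% in CS at 30347845 to 30347944. On chromosome 7, the CG hypo-DMR at 1476351 to 1476558 enclosed a CHG hypo-DMR at 1476403 to 1476557, where 13 cytosines had 6.41% in HDS against 53.1% in CS. At both places most of the methylation seen in CS was missing in HDS, in both contexts.

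On chromosome 9, the CHH hypo-DMR at 22200420 to 22200669 held a CG hypo-DMR at 22200603 to 22200667, with 26.0% in HDS against 64.9% in CS over 11 cytosines. Chromosome 12 had losses at 2 places. Close to the start of the chromosome sequence, a CG hypo-DMR at 18123 to 18296 with 63.1% in HDS against 91.5% in CS overlapped a CHG hypo-DMR at 18268 to 18336 with 45.2% in HDS against 76.1% in CS. A further CHG hypo-DMR followed 159 bp on, at 18496 to 18568, with 46.7% in HDS against 77.5% in CS, so that 3 neighbouring DMRs were all lower in HDS. At the other place the contexts differed in extent. There 27 CHH cytosines at 17243271 to 17243596 had 2.66% in HDS against 55.2% in CS, while 11 CHG cytosines at 17243345 to 17243506 kept 50.9% in HDS against 85.7% in CS.

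Gains in both contexts were found at 3 places on the arms. The CHH hyper-DMR of chromosome 6 named above, at 4943176 to 4943558, overlapped a CHG hyper-DMR at 4943246 to 4943575 with 67.8% in HDS against 24.3% in CS. On chromosome 11, 38 CHH cytosines at 23097733 to 23097932 had 63.6% in HDS against 18.8% in CS, and 16 CHG cytosines within them, at 23097791 to 23097905, had 81.8% in HDS against 33.9% in CS. On chromosome 4, a CG hyper-DMR at 14985431 to 14985509 with 85.1% in HDS against 49.5% in CS lay inside a CHG hyper-DMR at 14985413 to 14985510 with 71.7% in HDS against 23.8% in CS, each of 6 cytosines. None of these DMRs was under 10% in CS.

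**Figure D5:**
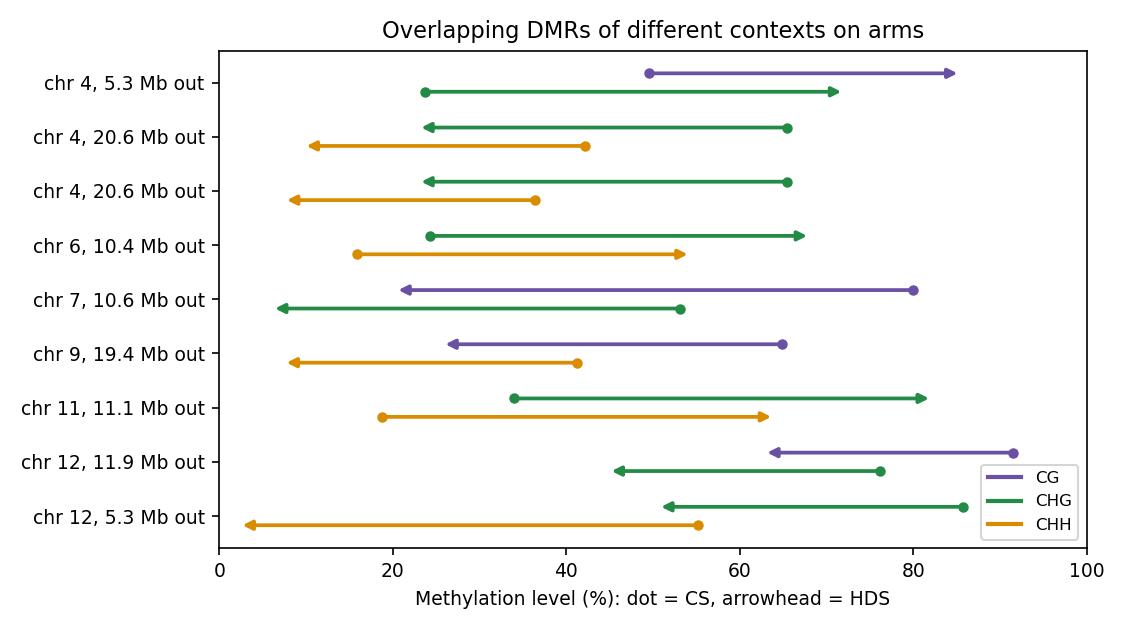
Methylation level (horizontal axis, %) in each of the 9 pairs of overlapping DMRs on the arms, with CG in purple, CHG in green and CHH in orange, a dot for CS and an arrowhead for HDS. Rows give the chromosome and the distance from the centromere midpoint in Mb, and the CHG DMR of chromosome 4 appears in 2 rows. Arrows of a pair point the same way in all 9 rows, to the left in 6.

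DMRs that were close together without overlapping went both ways. On the arms 30 consecutive DMRs lay within 20 kb of the one before, a distance chosen after the data were seen. Of these 30 neighbour pairs, 16 had the same direction and 14 the opposite one (53.3% the same, Wilson 36.1 to 69.8%). Members of the overlapping pairs above were not left out. The CHH hypo-DMRs inside a single CHG hypo-DMR of chromosome 4 thus counted as neighbours with the same direction. Neighbours of the same context agreed in 10 of 14 cases (71.4%, 45.4 to 88.3%), and neighbours of different contexts in 6 of 16 (37.5%, 18.5 to 61.4%). These intervals overlapped and both included 50%. The mixture was similar near the centromeres, where 25 of 48 neighbour pairs had the same direction (52.1%, 38.3 to 65.5%). There neighbours of the same context agreed in 15 of 24 cases (62.5%) and those of different contexts in 10 of 24 (41.7%).

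Opposite neighbours included some of the largest differences. On chromosome 12, the CHH hypo-DMR at 20488324 to 20488664, with 5.94% in HDS against 57.2% in CS, was followed 8235 bp on by the CG hyper-DMR that had the largest gain of the arms. On chromosome 5, a CHG hypo-DMR at 29850495 to 29850600 had 36.7% in HDS against 73.9% in CS, and 1367 bp on a CHG hyper-DMR at 29851968 to 29852120 had 64.0% in HDS against 25.7% in CS. On chromosome 11, the CHG levels were 29.3% in HDS against 73.0% in CS at 5720881 to 5721008, and 67.5% in HDS against 13.7% in CS at 5724746 to 5725012. In these cases methylation was higher in HDS at one site and lower at another within a few kb.

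The group with the most arm DMRs, chained over gaps of up to 50 kb, was on chromosome 7, where 7 lay within 87.1 kb, from 2997641 to 3084786, of which 4 were in CHH, 2 in CHG and 1 in CG. Of these, 3 were hyper-DMRs and 4 hypo-DMRs. The CHH level was 1.95% in HDS against 38.5% in CS at 3009608 to 3009807, 6.23% in HDS against 44.0% in CS at 3014550 to 3014662, and 26.0% in HDS against 59.8% in CS at 3045908 to 3046184. It was 36.6% in HDS against 3.94% in CS at 3063164 to 3063725, so the CHH changes went both ways. Chromosome 4 had 2 tighter groups of 4 DMRs. The tightest spanned 3.17 kb, from 30347577 to 30350742, and held the overlapping CHG and CHH hypo-DMRs given above and a CHG hyper-DMR at 30350684 to 30350742, with 41.7% in HDS against 6.53% in CS. The other lay within 17.5 kb, from 15602814 to 15620297, with 3 hypo-DMRs in CHG and CG and 1 CHH hyper-DMR between them, which had 29.5% in HDS against 3.18% in CS.

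The arms of single chromosomes differed in number and in balance. Chromosomes 4 and 11 had the most arm DMRs, 29 each, or 13.4% (exact 9.18 to 18.7%) of the 216, followed by chromosome 7 with 26 and chromosome 12 with 24. The fewest, 6, were on chromosome 10 (2.78%, exact 1.03 to 5.95%), whose arms were also the shortest. Per Mb of arm, chromosome 11 had the most, 1.57, and chromosome 2 the fewest, 0.449, while chromosome 10 had 0.630. On chromosome 4 the long stretch after the centromere held 24 of the 29, of which 12 were hyper-DMRs. On chromosome 11 the arm before the centromere held 18, of which 13 were hyper-DMRs.

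Hypo-DMRs outnumbered hyper-DMRs on the arms of 4 chromosomes, with 16 of 26 on chromosome 7, 10 of 15 on chromosome 9, 13 of 24 on chromosome 12 and 8 of 14 on chromosome 3. The gap to the centromere surroundings was widest on chromosome 9, where 5 of 15 arm DMRs and 12 of 15 DMRs near the centromere were hyper-DMRs. The hyper-DMR share was lower on the arms than near the centromere on 8 of the 12 chromosomes and higher on chromosomes 2, 3, 5 and 11. Arms before the centromere had 52 hyper-DMRs among 87 DMRs (59.8%) and arms after it 65 among 129 (50.4%). Chromosome 9, with 5 hyper-DMRs of 15, could count only after the centromere under the 5.0 Mb rule. With 1 library per treatment, none of these chromosome values has a replicate.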

How the data were processed

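Whole-genome bisulfite sequencing of 1 CS and 1 HDS library gave 3 tables of DMRs, 1 per context. Per the submitters' processing notes, the authors used Trimmomatic 0.38, Bismark 0.22.3 and HISAT2 2.1.0, and per the study's methods DMRs were called with DSS on IRGSP-1.0. The deposited methylation level is a fraction per DMR and library, the authors' mean, printed here as a percentage. The deposited difference, a score, was used only to check which way the levels were subtracted, and matched the first level less the second, within floating-point rounding, in 457 of 457 DMRs. The first level was taken as HDS because DSS forms group 1 minus group 2, heat precedes control in the name of the comparison, and the positive differences then match the number of hyper-DMRs in the study's main text, although a figure legend of the study gives a slightly different number. The area statistic, the authors' own test result, was not used. The tables hold no read depth, so the precision of single levels is unknown.

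DMRs were assigned by midpoint and approximate centromere midpoints. Shares have 95% Wilson or exact intervals, differences of shares Newcombe intervals and medians binomial intervals, all over DMRs and for counting error only. Densities use the span between the first and last DMR of a chromosome. The members and lists were chosen with earlier results of these data known. The named DMRs were the 4 with the largest absolute difference times cytosines in each context and direction, every arm DMR overlapping one of another context, and those closest to the 5.0 Mb limit. Other single DMRs were chosen after their values were seen. Planned values on genes and sequence were not computed, since they need an IRGSP-1.0 genome, which was not used here. Python 3.11.15, pandas 2.3.3, numpy 2.4.6, scipy 1.17.1 and matplotlib 3.10.9 were used, and the overlap count and the Newcombe interval were tested on simulated data. Alternatives were other limits of distance, cytosines, length and difference, joined DMRs and leaving out each chromosome.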

Additional observations from a re-analysis of the deposited data

How the results depend on the processing

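For 20 results, 224 alternative values were computed. Of these, 218 lay within the 95% interval of the reported value or, for counts, within 1.5 times of it. The other 6 follow from how the alternatives were built. No difference of hyper-DMR shares changed sign. Agreement by this rule says little, since the intervals are wide and most alternatives reuse the same DMRs. The rule counted a CHH difference of -0.135 points with a limit of 3.0 Mb as within the interval of the reported -16.5 points. With at least 10 cytosines 125 arm DMRs were left and with at least 100 bp 140, each with a median length of 186 bp. The arm share of DMRs on chromosomes was 65.6% with a limit of 3.0 Mb and 36.0% with 7.5 Mb. Leaving out each chromosome in turn gave differences in hyper-DMR share between arms and centromere surroundings of -13.4 to -8.11 points over all contexts, -16.2 to -11.5 points in CHG, -26.4 to -11.7 points in CHH and 0.526 to 9.76 points in CG. The hyper-DMR share on the arms crossed 50% in CHG, to 48.8% with 7.5 Mb and 48.3% with at least 100 bp, and in CHH, to 46.7% with 7.5 Mb and 48.6% without chromosome 11, with intervals that include 50% as those of the reported shares do. Past 50 points the differences between arms and centromere surroundings were -50.8 to -38.7 points. With at least 10 cytosines 6 overlapping pairs were left, all in the same direction. Joining within 100 kb, leaving out chromosomes, changing the 50-point limit and setting pairs against those near the centromeres were added after seeing the data. No paired analysis was possible because only 1 library stood for each treatment. The 4 alternatives planned for genes and sequence were not run.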

Other observations

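Some levels recurred exactly, to every printed digit, in DMRs at different places with different numbers of cytosines. A CS level of 4.73022% was given for 3 CHG DMRs, at chromosome 1, 13014995 to 13015073 (7 cytosines, near the centromere), and on the arms at chromosome 7, 17984649 to 17984738 (4 cytosines), and chromosome 9, 10510143 to 10510238 (5 cytosines). Their HDS levels were not alike, at 68.3%, 66.9% and 54.5%. The chromosome 7 DMR had the largest CHG gain of the arms, 62.2 points. An HDS level of 8.35217% was shared by 3 CHG DMRs, of which 1 was on an arm, at chromosome 7, 18044575 to 18044753, where the CS level was 50.6%. These recurrences were noticed after the values were seen, and their source was not tested.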
